A study of Mus musculus with 7 samples.

Results

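Stretches of the genome where accessible regions crowd together were examined in neural progenitors of the mouse cerebral cortex: 281 clusters, each made of 3 or more regions separated by gaps of at most 25 kb. They held 960 regions, which was 7.50% of the 12806 shared regions, and the rest fell into pairs (2612 regions) or stood alone (9234 regions). The clusters were chosen from the peak calls themselves. Peaks of 7 libraries that overlapped by at least 1 bp on chromosomes 1 to 19 were merged into 24734 regions, a region was shared when at least 2 lists called it, and neighbouring shared regions were joined by distance alone. How close the members lie to each other, and that each has at least 2 callers, therefore follows from the choice and is given as description. The genotype of the calling library played no part in it.

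Assay for transposase-accessible chromatin with sequencing (ATAC-seq) was run on CD15-positive cells that were sorted by flow cytometry from the dorsal telencephalon of CD-1 embryos, labelled embryonic day 14 and E14.5. The controls were 3 wild-type libraries, and 4 libraries carried the genotype L3mbtl3 -/-. A shared growth protocol names heterozygous cells as well, although no library has that genotype in its label. Nothing in the labels ties a library to a separate embryo or litter, so p-values measure the spread between libraries, which may in part be technical. The kind of mutation in the L3mbtl3 allele, and whether embryos were pooled, is not given in the sources used here.

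In ATAC-seq a transposase inserts adapters where DNA is not wrapped tightly around nucleosomes, so that promoters and enhancers show up as peaks of reads. Developmental genes are often served by several enhancers spread over the gene and its flanks, and tandem gene families place many promoters side by side. L3MBTL3 is a reader of methylated lysines with malignant brain tumour (MBT) repeats, and Polycomb repressive complex 1, with which the study links it, compacts chromatin and marks histone H2A. CD15 is a carbohydrate on the surface of neural stem and progenitor cells. Cortical progenitors at this stage are radial glia and their neurogenic offspring, in which Gli3 and Neurog2 act as regulators of patterning and of neuron formation.

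The lists held 3366 to 17362 peaks per library and their read depth is unknown, since they carry no counts. Every list is a set of calls, so a region that a library did not call may have been open below its detection limit. Coordinates are on GRCm38 and count from 1, and genes are the protein-coding genes of the RefSeq annotation GRCm38.p6. A region was placed at a gene end when it lay within 1 kb of either end of a gene span.

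The promoters that members covered are the part of the clusters for which sequence could be read. A RefSeq window of 300 bases, from 250 before to 50 after a gene's start, overlapped 108 of the 960 member regions, in 64 of the 281 clusters and at 116 genes. The 8 windows below are given 5′ to 3′ on the strand of the gene, from RefSeq on GRCm38.p6. Capitals mark any match, on either strand, to a motif from a short list, and matches to different motifs may overlap. E-boxes, which basic helix-loop-helix factors bind, were searched as CAGCTG, as CAGATG and as CATATG. The other motifs were the GC box GGGCGG and the Ets core CCGGAA. Added to these were the CCAAT box and the TATA box, read as TATAAA. Tars and Wbp11 are shown because their promoters were called in all 7 lists, Fam181b because its cluster is the longest, Sema3c because its promoter was called in knockout libraries alone, H2bc14 and Zfp28 as members of tandem gene families, and the windows of Gm13283 and Gm13285 because they are nearly identical. All but Fam181b and the interferon genes were picked after their values were seen.
Tars, chr15:11399609-11399908, minus strand: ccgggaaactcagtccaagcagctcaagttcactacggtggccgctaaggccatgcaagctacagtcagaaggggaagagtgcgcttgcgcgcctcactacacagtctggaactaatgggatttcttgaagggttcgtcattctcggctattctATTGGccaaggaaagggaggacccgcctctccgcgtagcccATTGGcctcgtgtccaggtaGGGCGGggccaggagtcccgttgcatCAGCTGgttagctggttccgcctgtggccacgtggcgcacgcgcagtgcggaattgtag
Wbp11, chr6:136828167-136828466, minus strand: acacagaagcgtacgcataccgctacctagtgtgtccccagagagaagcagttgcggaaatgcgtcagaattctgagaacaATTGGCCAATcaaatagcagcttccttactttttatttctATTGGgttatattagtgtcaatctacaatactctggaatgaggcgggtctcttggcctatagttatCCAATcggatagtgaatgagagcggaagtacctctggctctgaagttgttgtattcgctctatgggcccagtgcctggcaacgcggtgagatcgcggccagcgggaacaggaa
Fam181b, chr7:93079629-93079928, plus strand: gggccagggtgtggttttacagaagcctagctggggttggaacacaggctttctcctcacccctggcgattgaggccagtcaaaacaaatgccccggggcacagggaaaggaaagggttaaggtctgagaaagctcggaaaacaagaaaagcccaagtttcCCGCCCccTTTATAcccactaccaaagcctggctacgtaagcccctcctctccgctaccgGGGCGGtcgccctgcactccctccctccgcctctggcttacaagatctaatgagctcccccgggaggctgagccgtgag
Sema3c, chr5:17574566-17574865, plus strand: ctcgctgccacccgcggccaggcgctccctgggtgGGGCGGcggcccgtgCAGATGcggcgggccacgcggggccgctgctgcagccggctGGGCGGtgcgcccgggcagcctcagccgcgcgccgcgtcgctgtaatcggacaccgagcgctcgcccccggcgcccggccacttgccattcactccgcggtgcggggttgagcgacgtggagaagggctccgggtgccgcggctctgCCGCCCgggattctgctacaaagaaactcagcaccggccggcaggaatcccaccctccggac
H2bc14, chr13:21721794-21722093, plus strand: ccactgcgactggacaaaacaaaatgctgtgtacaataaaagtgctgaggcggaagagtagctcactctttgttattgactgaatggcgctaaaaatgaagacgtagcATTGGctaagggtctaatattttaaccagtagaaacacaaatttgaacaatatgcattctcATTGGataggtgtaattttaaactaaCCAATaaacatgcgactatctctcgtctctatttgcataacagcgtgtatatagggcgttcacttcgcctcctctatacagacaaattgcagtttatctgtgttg
Zfp28, chr7:6383068-6383367, plus strand: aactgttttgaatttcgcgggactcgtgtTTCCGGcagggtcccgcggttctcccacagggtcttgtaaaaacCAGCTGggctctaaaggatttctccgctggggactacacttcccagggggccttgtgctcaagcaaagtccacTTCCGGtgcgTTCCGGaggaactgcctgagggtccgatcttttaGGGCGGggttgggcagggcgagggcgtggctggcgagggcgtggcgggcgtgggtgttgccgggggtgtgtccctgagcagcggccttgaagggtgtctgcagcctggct
Gm13283, chr4:88760524-88760823, plus strand: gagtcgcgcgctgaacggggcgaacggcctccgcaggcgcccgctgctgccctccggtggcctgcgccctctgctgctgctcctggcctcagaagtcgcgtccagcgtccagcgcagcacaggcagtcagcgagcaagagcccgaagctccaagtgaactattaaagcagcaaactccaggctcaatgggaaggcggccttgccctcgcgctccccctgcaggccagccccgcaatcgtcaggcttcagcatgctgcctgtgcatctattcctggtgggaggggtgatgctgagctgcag
Gm13285, chr4:88800070-88800369, plus strand: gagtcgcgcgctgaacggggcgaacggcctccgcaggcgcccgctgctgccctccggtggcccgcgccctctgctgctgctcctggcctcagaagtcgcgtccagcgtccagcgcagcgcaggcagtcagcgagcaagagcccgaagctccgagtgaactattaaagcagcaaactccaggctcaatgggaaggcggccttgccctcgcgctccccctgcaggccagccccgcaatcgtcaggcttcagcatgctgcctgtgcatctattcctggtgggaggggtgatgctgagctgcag

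The printed windows differ widely in base composition. GC content was 75.7% at Sema3c, with 42 CpG dinucleotides, and 38.7% at H2bc14, with 9. Tars has CCAAT boxes read on the opposite strand, a GC box and the E-box CAGCTG, while Wbp11 has CCAAT boxes alone. Zfp28 carries several Ets cores, which read TTCCGG on the printed strand. Neither interferon window holds any of the motifs searched.

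Over the 124 windows that clustered regions touched, median GC content was 59.3%, against 59.7% for the 2313 windows touched by other shared regions and 57.0% for all 20063 windows. The GC box was present in 63.7% of cluster windows, in 64.4% of the other windows with a shared region and in 47.0% of all windows. For the Ets core the shares were 31.5%, 33.0% and 19.1%, and for the CCAAT box 54.0%, 61.0% and 38.1%. The E-box CAGCTG occurred in 16.1% of cluster windows, 12.7% of other accessible windows and 15.7% of all windows. For CAGATG the shares were 8.07%, 10.6% and 14.6%, and for CATATG 0.807%, 1.30% and 2.89%. The TATA box was in 11.3%, 5.02% and 12.7%, respectively. These shares are descriptions of letters in a window and were not tested.

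Clusters were more numerous than chance placement would give. With the same number of regions spread uniformly and independently between the first and the last shared region of each chromosome, an exact formula gives 563.8 regions in 179.1 clusters, so the observed 960 regions and 281 clusters were 1.70 and 1.57 times that. Of 12787 gaps between neighbours, 1985 were at most 25 kb, where uniform spacing gives 1615. The excess was present at shorter and longer reach: 195 regions against 103.2 for gaps of at most 10 kb, and 2800 against 1814 for 50 kb. Uniform spacing takes no account of gene density or of sequence to which reads cannot be mapped, and the part of either in the excess was not tested.

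On each of the 19 chromosomes more regions were clustered than under uniform spacing. Chromosome 7 stood highest, with 70 clustered regions against 16.93, a ratio of 4.13, and 11.6% of its shared regions in clusters. On chromosomes 5 and 18 the observed 25 and 26 regions were close to the 22.65 and 23.7 of uniform spacing. Within chromosome 7, the 5 Mb from 90 to 95 Mb held 21 clustered regions in 4 clusters, among 48 shared regions. That interval contains the Fam181b cluster and part of the synaptic scaffold gene Dlg2. On chromosome 12, the window from 35 to 40 Mb held 15 regions in 4 clusters, 2 of which are inside Dgkb, a diacylglycerol kinase gene, and 2 at or nearest to the Ets factor gene Etv1. Clusters were spread over 196 of the 501 windows of 5 Mb that held any shared region.

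**Figure D1:**
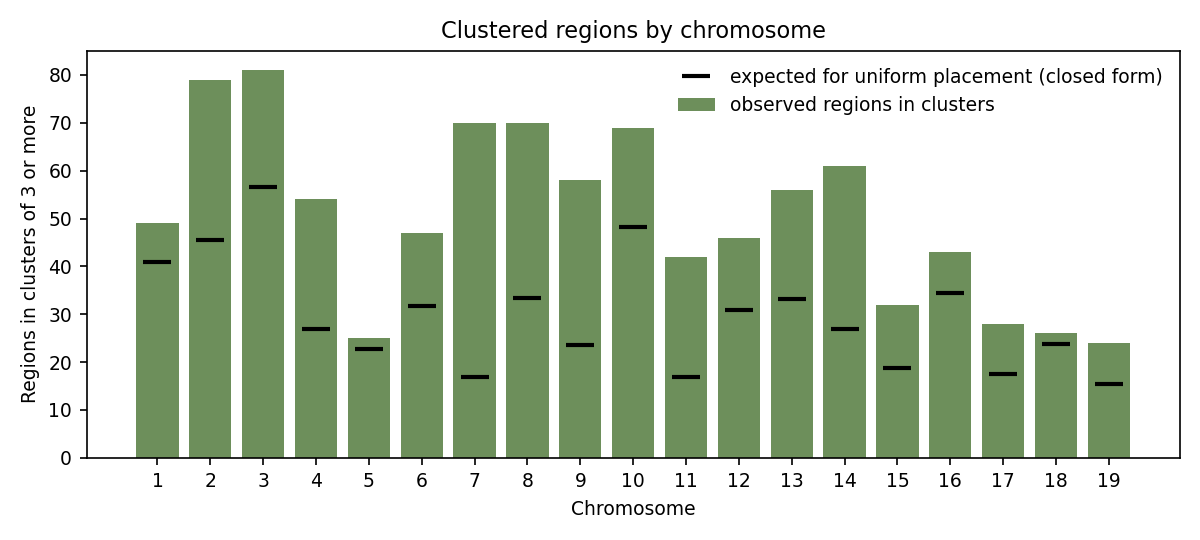
Number of shared regions in clusters of 3 or more on each chromosome (bars), beside the number expected when the chromosome's shared regions are spaced uniformly (black marks, closed form). All 19 bars exceed their mark, and chromosome 7 has 70 against 16.93.

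Most clusters were small. There were 216 clusters of 3 regions, 48 of 4, 9 of 5, 3 of 6, 2 of 7, 2 of 9 and 1 of 25. The median span was 27.5 kb, with a range from 2.585 kb to 126.017 kb, and the widest gap inside a cluster had a median of 17636 bp. The limit of 25 kb does not sit at a break in the spacing. The largest gap that joined was 24952 bp and the smallest that did not was 25006 bp, and 371 gaps lay between 20 and 25 kb beside 385 between 25 and 30 kb. In 105 of the 281 clusters the widest gap exceeded 20 kb, so that a slightly stricter limit would split them.

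By position, 103 clusters (350 regions) overlapped no protein-coding gene, and the gene nearest to them was 142.259 kb away in the median. Another 102 clusters (340 regions) overlapped a gene but had no region at a gene end. Regions at gene ends and elsewhere were mixed in 62 clusters, and 14 clusters consisted of gene ends alone. The number of genes overlapped was 1 in 135 clusters, 2 in 23, 3 in 9, 4 in 4 and 5 or more in 7.

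Clustered regions were found at gene ends in 14.6% of cases (140 regions), inside genes in 39.2% (376) and between genes in 46.3% (444). Pairs had almost the same make-up, with 14.0%, 38.3% and 47.7%. Regions that stood alone were more often at a gene end, at 21.6%, and less often inside a gene, at 32.2%. No test was made of these shares, because neighbouring regions share their locus. Median length was 254 bp for clustered and 259 bp for other shared regions.

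**Figure D2:**
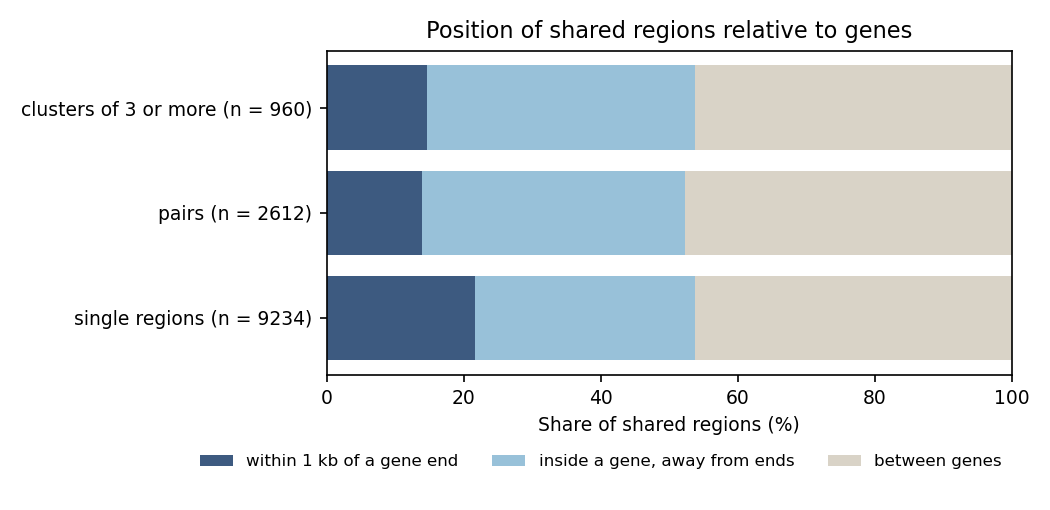
Share of shared regions (%) within 1 kb of a gene end, inside a gene or between genes, for regions in clusters of 3 or more, in pairs and alone. The gene-end share is 14.6% in clusters and 21.6% for regions that stand alone, while the share between genes is similar in all 3 rows.

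The single largest cluster lies at the start of the assembled sequence of chromosome 9, at chr9:3000086-3038227, where 25 regions followed each other within 38142 bp. The libraries called 22, 23 and 24 of them in wild-type and 23, 23, 20 and 23 in knockout. The groups overlap and the difference was −0.75 regions (exact permutation p = 0.714, n = 3 and 4). No gene lies near it: Alkbh8, the closest, is 297004 bp away. Such a run at a chromosome's assembled start, like the interval chr2:98662237-98667320, is known to gather excess reads in mouse short-read data because the sequence repeats elsewhere. Whether that holds in these libraries was not tested.

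The chromosome 2 interval was the one cluster whose 3 regions were called in all 7 libraries. Its strongest region, chr2:98666240-98667320, had a fold enrichment over the peak caller's background of 10.4, 10.9 and 11.4 in wild-type and 10.1, 10.3, 10.6 and 10.8 in knockout libraries. All 7 values lay close together, and its rank within the lists averaged the 99.7th percentile. When peaks were kept only at a −log10 q of at least 5, these 2 clusters alone remained, with 3 and 24 regions. Without the chromosome 9 cluster, 935 regions were clustered against 561.3 under uniform spacing, a ratio of 1.67.

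The cluster around Fam181b on chromosome 7, chr7:92984794-93110810, was the widest at 126017 bp, with 9 regions of which 1 is at the gene and 8 lie on both sides of it. Wild-type libraries called 4, 5 and 1 of the 9, and knockout libraries 8, 5, 1 and 7. Both genotypes span low and high numbers, and the difference of 1.92 regions did not pass the test (exact permutation p = 0.457, n = 3 and 4). The region chr7:93062139-93062433, 17446 bp from the gene, was called in all 7 libraries, with fold enrichments of 6.30, 5.57 and 5.19 in wild-type and 6.02, 5.46, 5.13 and 8.02 in knockout. The region over the promoter printed above, chr7:93079796-93079960, was called in wild-type libraries 1 and 2 at 4.36 and 4.50, and in knockout libraries 1, 2 and 4 at 6.20, 5.24 and 7.07. It was missing from 1 library of each genotype, which are those with the shortest list of their genotype.

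On chromosome 4, 9 regions between 88760698 and 88806207 lay at the ends of 9 members of the interferon zeta family, a tandem array of secreted antiviral cytokine genes: Gm13283, Gm13290, Gm13272, Ifnz, Gm13276, Gm13278, Gm13285, Gm13287 and Gm13288. Wild-type libraries called 3, 4 and 1 of them, and knockout libraries 3, 2, 3 and 8 (exact permutation p = 0.686, n = 3 and 4). Knockout library 4, the longest list, stands apart from the other 6. Reads from some of these copies cannot be told apart with certainty. The promoter windows of Gm13272, Gm13285 and Gm13287 were identical in 300 of 300 bases. The window of Gm13283 matched each of them at 297 of 300 bases, as can be seen in the printed pair, while Gm13290 matched Gm13283 at 80 of 300 positions without gaps. Calls at Gm13272, Gm13285, Gm13287 and Gm13283 are uncertain for that reason. The windows of Ifnz, Gm13276, Gm13278 and Gm13288 were not compared, so whether it holds for them was not tested.

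Inside Ralgapa2, which encodes the catalytic subunit of a Ral GTPase-activating complex, 7 regions were spread over 86144 bp (chr2:146262235-146348378). They were called 6, 4 and 3 times in wild-type and 4, 2, 1 and 6 times in knockout libraries (exact permutation p = 0.60, n = 3 and 4). The cluster of 7 regions over Cpe, Msmo1 and Klhl2 (chr8:64687934-64761678) joined a processing enzyme of neuropeptides, a sterol synthesis enzyme and a ubiquitin ligase adaptor. Its calls were 5, 3 and 1 in wild-type and 4, 2, 0 and 7 in knockout (exact permutation p = 1, n = 3 and 4). The region at the start of Msmo1, chr8:64733569-64733830, was called in 6 libraries at folds from 5.29 to 7.64, whereas the other 6 regions had 2 to 5 callers. In both clusters the genotypes overlapped fully.

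Within Lrrc4c, the gene of a netrin-G ligand at synapses, 6 regions covered 77814 bp (chr2:97466319-97544132). The number called was 5, 6 and 3 in wild-type and 3, 3, 3 and 4 in knockout libraries (exact permutation p = 0.257, n = 3 and 4). The 3 regions starting at 97466319, 97478301 and 97543499 were called in all 7 libraries. The remaining 3 had 2 callers each, and 2 of them were called in wild-type libraries 1 and 2 alone, at folds between 3.96 and 4.29. Those values are at the low end of the lists, with mean ranks at the 11.0th and 21.3rd percentile.

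Sema3a, which encodes a secreted repellent of axons, also held 6 regions, all inside the gene (chr5:13360699-13421612). Wild-type libraries called 2, 6 and 3, and knockout libraries 4, 4, 0 and 4 (exact permutation p = 0.714, n = 3 and 4). Wild-type library 2 called every region and knockout library 3 none. The most widely called, chr5:13405564-13405753, was found in 6 libraries at folds from 4.25 to 6.38.

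Another cluster of 6 regions lay 79655 bp from Prag1, a pseudokinase gene (chr8:35933679-36015172), and was called 1, 3 and 1 times in wild-type and 3, 2, 0 and 5 times in knockout. Of the clusters with 5 regions, the one at chr7:94637374-94688196 was far from any gene, with Gm15501 at 1453198 bp. It was called 4, 4 and 4 times in wild-type and 5, 5, 2 and 4 times in knockout, and 2 of its regions had all 7 callers. At chr8:53930750-53956529, 119541 bp from Gm33153, the calls were 3, 4 and 2 in wild-type and 5, 3, 2 and 5 in knockout. The cluster over Entpd6 (chr2:150735802-150786773) had 2, 2 and 4 in wild-type and 3, 5, 1 and 4 in knockout. Within 1 kb of it lies an end of Pygb, which encodes glycogen phosphorylase of brain. In Sgms1, a sphingomyelin synthase gene (chr19:32298007-32381687), they were 4, 3 and 2 in wild-type and 3, 2, 0 and 5 in knockout. In each of these 5 clusters the genotypes overlapped.

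**Figure D3:**
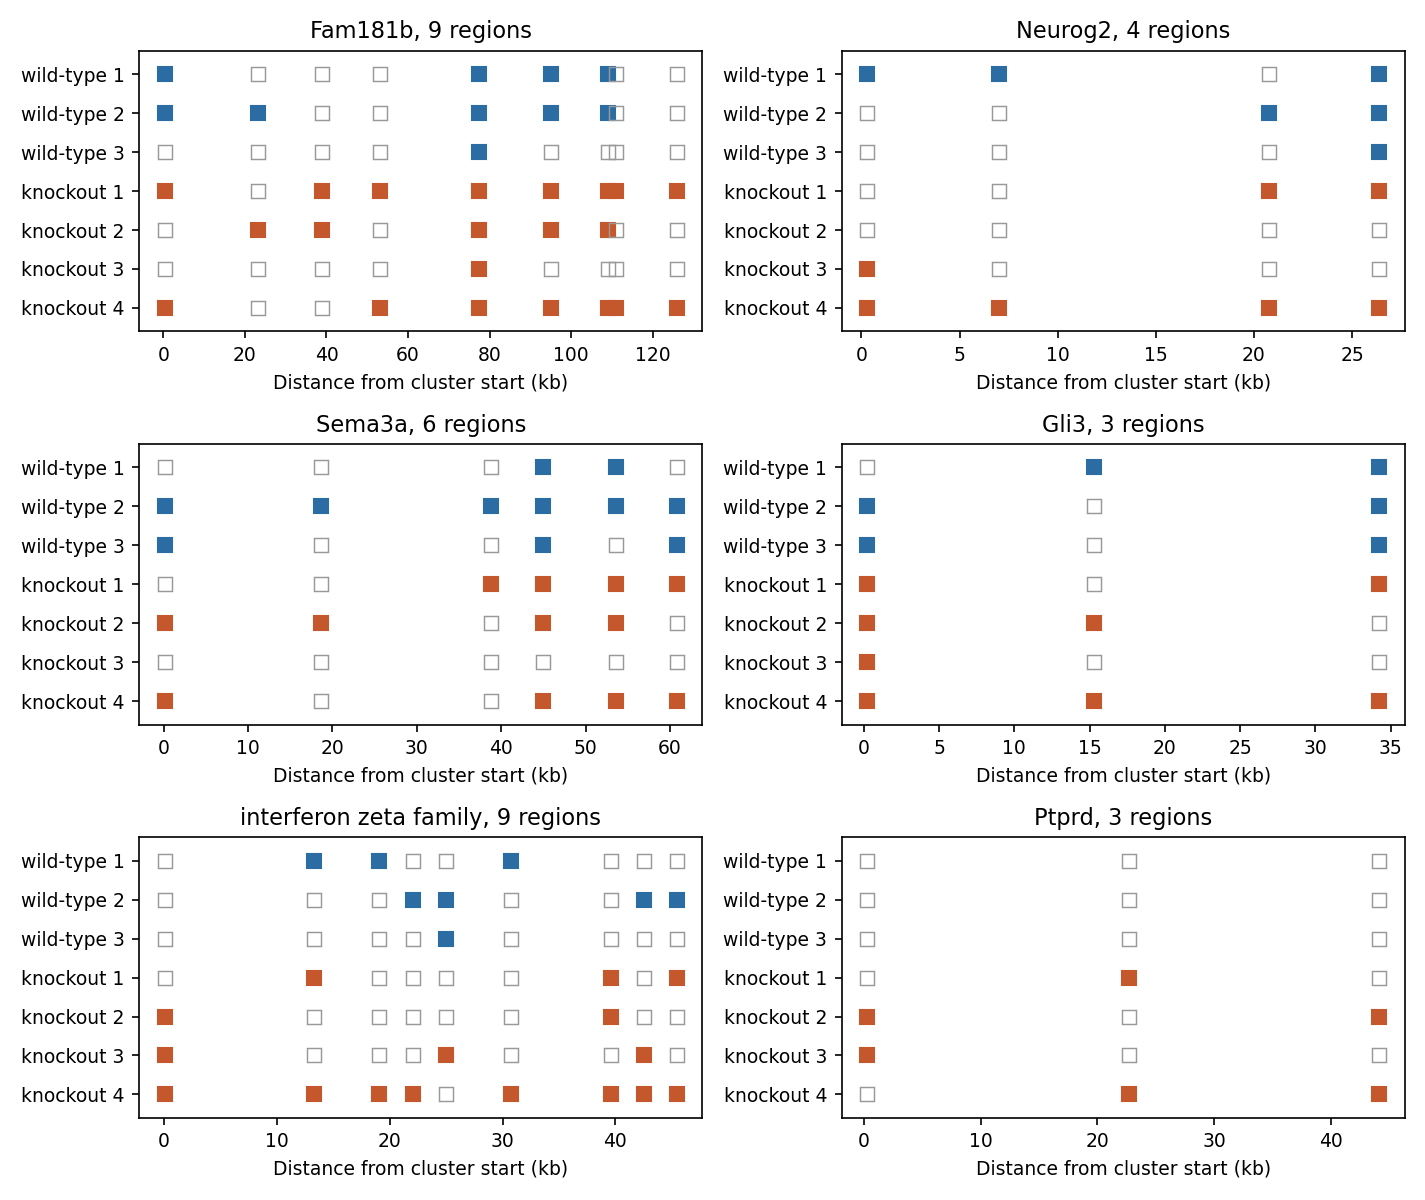
Regions of 6 clusters by distance from the cluster start (kb, x axis) and library (y axis); filled squares are called and open squares not called. Calls change from library to library within a genotype, as at Sema3a with 6 of 6 in wild-type library 2 and 0 of 6 in knockout library 3, and Ptprd is called in knockout libraries alone.

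Of the gene lists drawn up for this tissue, few members were within 25 kb of a cluster. Among 20665 protein-coding genes, 361 (1.75%) lay within 25 kb of a cluster and 267 (1.29%) were overlapped by one. From 28 cortical and progenitor transcription factors 1 qualified, Gli3, from 21 neuronal differentiation genes 1, Neurog2, and from 14 ventral telencephalon genes 1, Foxp2. Of 18 radial glia effectors and 26 Polycomb genes none was within 25 kb of a cluster, although 13 and 6 of them had some shared region within that distance. The limit of 25 kb leaves out clusters farther from a list gene. Sox2, Nr2f1, Bcl11a and Ptprz1 from these lists were each the gene nearest to a cluster beyond that distance. The counts of 1 or 0 are too small to set a list apart from all genes. Markers of other cells that the sort could hold were also absent from clusters: 0 of 5 for meninges, 0 of 5 for endothelium, 0 of 6 for microglia and blood and 0 of 4 for the oligodendrocyte lineage. Shared regions of any kind were near 1, 0, 2 and 0 of them, respectively.

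Gli3, the zinc-finger effector of hedgehog signalling that patterns the dorsal telencephalon, had 3 regions at chr13:15707640-15742083, 2 inside the gene and 1 outside its span at 11639 bp. Wild-type libraries called 2, 2 and 2, and knockout libraries 2, 2, 1 and 3 (exact permutation p = 1, n = 3 and 4). The outer region, chr13:15741665-15742083, had folds of 5.38, 6.09 and 5.38 in the wild-type libraries and 4.99 and 8.61 in knockout libraries 1 and 4. Knockout libraries 2 and 3 did not call it.

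Neurog2 encodes a proneural basic helix-loop-helix factor that drives cortical progenitors to form glutamatergic neurons. Its cluster of 4 regions (chr3:127625754-127652483) was called 3, 2 and 1 times in wild-type and 2, 0, 1 and 4 times in knockout (exact permutation p = 1, n = 3 and 4). The region at the end of the gene, chr3:127632672-127632861, was called at fold 5.27 in wild-type library 1 and 4.75 in knockout library 4 and in no other library. The region farthest out, chr3:127651780-127652483, had the most callers, with folds of 4.28, 4.91 and 4.39 in wild-type and 3.86 and 4.51 in knockout libraries 1 and 4. In Foxp2, a forkhead factor of several neuron types, 3 regions (chr6:15182958-15197274) were called 1, 2 and 0 times in wild-type and 2, 0, 3 and 2 times in knockout (exact permutation p = 0.514, n = 3 and 4).

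Replication-dependent histone genes, which stand in tandem arrays and are expressed in S phase, were the list with the most members near clusters: 23 of 67, or 34.3%, in only 2 clusters. In the array at chr13:21716225-21754122 the 4 regions lie at gene ends, and 2, 3 and 2 of them were called in wild-type and 2, 3, 3 and 3 in knockout libraries. The shared start of H2ac15 and H2bc15 (chr13:21753818-21754122) was called in all 7, at folds from 4.00 to 4.95. The region over H2bc14, whose sequence is printed above, was found in 5 libraries at 4.65 to 6.70. The second array, chr13:23544281-23586096, had 1, 2 and 2 in wild-type and 2, 0, 0 and 4 in knockout. The sequences of these copies were not compared with each other. Whether reads can be assigned to single copies within the arrays was therefore not tested.

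Zinc-finger genes, many of which also stand in tandem, were near clusters in 6 of 456 cases (1.32%). The cluster over Zfp28 and Zfp78 (chr7:6363016-6410311) was called 1, 4 and 1 times in wild-type and 2, 3, 0 and 2 times in knockout. Its region at the Zfp28 start had folds of 6.93 and 4.60 in wild-type libraries 2 and 3, and of 7.05, 4.26 and 6.09 in knockout libraries 1, 2 and 4. Near Zbtb7b, the cluster over Cks1b, Shc1 and Pygo2 (chr3:89411886-89430404) gave 2, 1 and 2 in wild-type and 1, 0, 1 and 3 in knockout. An end of Flad1 lies within 1 kb of it. At Zbtb3, with Taf6l and Ttc9c (chr19:8786283-8819373), the numbers were 2, 2 and 0 in wild-type and 0, 0, 2 and 3 in knockout.

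Among ribosomal protein genes, Rpl15 shares a cluster with Nkiras1 and the nuclear receptor gene Nr1d2 (chr14:18226287-18271221), called 3, 4 and 3 times in wild-type and 4, 2, 0 and 3 times in knockout. Rpl41 lies in the cluster of Pa2g4 and Esyt1 (chr10:128526081-128566355), called 0, 2 and 2 times in wild-type and 1, 0, 1 and 3 times in knockout. None of 39 Hox genes and none of 57 clustered protocadherin genes was within 25 kb of a cluster, although both stand in tight arrays. Shared regions were within that distance of 0 of the Hox and 35 of the protocadherin genes. Of 1458 olfactory and vomeronasal receptor genes 2 were near a cluster (0.137%), Olfr1359 beside a histone array and Vmn1r21. The cluster of Vmn1r21 and Vopp1 (chr6:57822566-57859942) was called 2, 3 and 3 times in wild-type and 1, 0, 0 and 2 times in knockout (exact permutation p = 0.0857, n = 3 and 4). Its region inside Vopp1, chr6:57822566-57822920, had folds of 7.42, 7.03 and 6.62 in wild-type and 6.07 in knockout library 4.

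Families of guidance, cadherin and LIM genes were examined after their presence among the clusters had been seen, so their shares are descriptions. The semaphorin group also took in Slit and Robo genes, netrins, netrin-G genes, netrin receptors, plexins and neuropilins. A cluster overlapped 5 of its 47 genes: Robo1, Robo2, Sema3a, Sema3c and Slit2. Eph receptors and ephrins gave Epha3 and Ephb1 of 21 genes, and LIM-only and LIM-homeobox genes Lmo3 and Lmo4 of 13. Cadherin genes, taken as the symbols made of Cdh and a number, gave Cdh2 of 23. Across all genes, the share overlapped by a cluster was higher above 100 kb, and below that it did not rise steadily with length. The share was 0.653% for genes of 10 to 30 kb, 0.676% for 30 to 100 kb, 3.48% for 100 to 300 kb and 8.63% above 300 kb. The median length was 17.5 kb for all genes. It was 108 kb in the semaphorin group, 148 kb in the cadherins, 28.2 kb in the Eph group and 24.0 kb in the LIM group. The part of length in the families' shares was not tested. Genes up to 10 kb were overlapped in 1.17% of cases.

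Slit2, a secreted ligand of Robo receptors, had a region called in all 7 libraries at chr5:48048964-48049935, with folds from 4.00 to 5.30. In its receptor Robo1, 3 regions (chr16:72585290-72623128) were called 2, 2 and 2 times in wild-type and 3, 3, 0 and 3 times in knockout. In Robo2, 4 regions (chr16:74182646-74201027) were called 2, 1 and 1 times in wild-type and 4, 3, 0 and 2 times in knockout. Knockout library 3, the shortest list, called no region in either receptor gene.

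Sema3c, a secreted semaphorin that can attract cortical axons, had 4 regions (chr5:17551795-17587132), called 1, 2 and 1 times in wild-type and 4, 4, 1 and 4 times in knockout (exact permutation p = 0.143, n = 3 and 4). The promoter region, chr5:17574477-17574791, was called in no wild-type library and at folds of 4.37, 5.22 and 4.54 in knockout libraries 1, 2 and 4. The region inside the gene at chr5:17582169-17582408 followed the same pattern, with 4.49, 4.63 and 4.16. The region chr5:17586670-17587132 was called in all 7, at 5.99, 5.62 and 6.06 in wild-type and 6.11, 5.20, 3.94 and 7.96 in knockout. Knockout library 3 called that region alone, and the genotypes share the value 1. This gene was singled out after its values were seen.

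At the promoters printed above, the Wbp11 region (chr6:136828153-136828479), at the start of a splicing factor gene, was called with folds of 7.16, 6.47 and 5.06 in wild-type and 6.78, 8.08, 6.50 and 7.96 in knockout libraries. The Tars region (chr15:11399586-11399923), at a threonyl-tRNA synthetase gene, had 6.38, 7.34 and 7.56 in wild-type and 7.64, 4.91, 6.0 and 8.44 in knockout. In both the ranges of the genotypes overlap. All 7 lists called 12 of the 108 promoter regions in clusters, beside 120 of all 960 clustered regions (12.5%) and 1270 of the 12806 shared regions (9.92%). In Cdk5rap2, a centrosomal protein gene known from microcephaly, the region chr4:70378125-70378239 had the highest fold of any member in any library. It reached 12.7, 11.8 and 10.03 in wild-type and 10.6, 7.30 and 13.7 in knockout libraries 1, 2 and 4, and knockout library 3 did not call it.

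Calling by genotype was compared over libraries. Wild-type libraries called 52.6%, 73.0% and 42.5% of the 960 clustered regions, and knockout libraries 66.3%, 51.4%, 25.6% and 82.9%. The knockout values enclose the wild-type values on both sides. The means were 56.0% ± 15.5 (SD, n = 3) and 56.5% ± 24.3 (SD, n = 4), a difference of 0.495 percentage points in knockout (two-sided exact permutation p = 1, where 0.0286 is the smallest p that 3 against 4 allows). The order of the libraries by this share was the order of their list lengths in 7 of 7 cases, so the share of regions called moves with list length. The part of list length in it was not tested.

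Within each library, clustered regions were called slightly more often than other shared regions. The excess was 2.11, 2.14 and 1.78 percentage points in wild-type and 1.79, 2.18, 2.45 and 0.703 in knockout libraries. All 7 values were positive, with the highest in the shortest list and the lowest in the longest. Without the chromosome 9 cluster, 51.7%, 72.5% and 41.1% of members in wild-type were called beside 50.5%, 70.9% and 40.7% of other regions, and in knockout 65.6%, 50.3%, 24.2% and 82.7% beside 64.5%, 49.2%, 23.2% and 82.2%. The excess was smaller in each library than with that cluster. Between genotypes the excess with the cluster differed by less than its spread (2.01 ± 0.202 and 1.78 ± 0.769, SD, n = 3 and 4, exact permutation p = 0.80). Of the shared regions that a library called, clusters held 7.78%, 7.71% and 7.80% in wild-type and 7.69%, 7.80%, 8.22% and 7.56% in knockout (7.76 ± 0.0499 and 7.82 ± 0.289, SD, n = 3 and 4, exact permutation p = 0.857). The library with the highest share, knockout library 3, has the shortest list, and the one with the lowest, knockout library 4, the longest.

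Peaks in clusters were of middling strength. Their median rank by fold enrichment within a list was the 51.7th, 54.8th and 59.5th percentile in wild-type and the 51.6th, 50.6th, 58.0th and 63.8th in knockout libraries. Means of 55.3 ± 3.90 and 56.0 ± 6.14 (SD, n = 3 and 4) differed by less than their spread (exact permutation p = 0.914). After correction for 4 measures by the Benjamini-Hochberg method each adjusted p was 1. Leaving out the chromosome 9 cluster gave 55.1% ± 16.0 and 55.7% ± 24.8 of members called (SD, n = 3 and 4, exact permutation p = 1).

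No difference by genotype was detected for any position relative to genes. For clustered regions at gene ends, the share called was 55.7% ± 15.1 among wild-type and 54.8% ± 27.8 among knockout libraries (n = 3 and 4, SD, with an exact permutation p of 1). Inside genes the means were 53.5% ± 15.9 and 56.5% ± 23.9 (SD, n = 3 and 4, exact permutation p = 0.914), and between genes 58.3% ± 15.5 and 57.1% ± 24.1 (SD, n = 3 and 4, exact permutation p = 0.971). Knockout library 4 called 92.1% of the members at gene ends, 81.9% of those inside genes and 80.9% of those between genes.

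**Figure D4:**
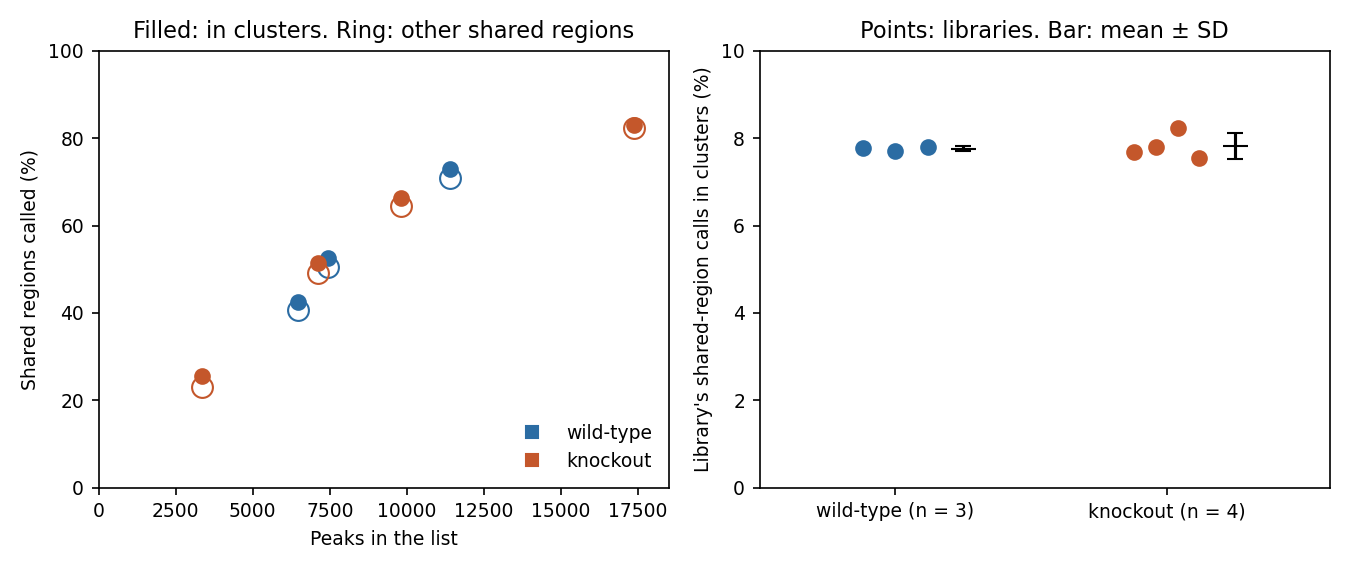
Left, share of shared regions called (%) against the number of peaks in the list, for regions in clusters (filled) and other shared regions (rings), by library; right, share of each library's shared-region calls that lie in clusters (%), with mean ± SD (n = 3 and 4). Shares rise with list length from 25.6% to 82.9% in clusters, and the knockout libraries lie on both sides of the wild-type libraries.

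Whole clusters were seldom called in full. A library called every region of a cluster in 30, 100 and 20 of the 281 clusters in wild-type and in 77, 42, 4 and 151 in knockout. These are 17.8% ± 15.5 and 24.4% ± 22.3 (SD, n = 3 and 4, exact permutation p = 0.714). In 51 clusters no library called all regions, and in 117 exactly 1 library did, which was knockout library 4 in 69 of them. At least 1 library of each genotype called the full set in 83 clusters. By contrast, 123 clusters had some region called in every library, and 88 contained a region called in all 7 lists.

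The number of clusters depends on the longest list. Without knockout library 4, 169 clusters with 570 regions were left, against 93.24 clusters and 290.4 regions under uniform spacing. The ratio of observed to uniform regions was then 1.96.

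Each cluster was also compared by the number of its regions called. Knockout libraries had the higher mean share in 134 clusters, wild-type libraries in 125, and 22 were equal, with a median difference of 0 points. The exact permutation test gave p under 0.05 for 1 of 281 clusters and an adjusted p under 0.05 for 0 of 281. The smallest p that 3 against 4 libraries allows is 0.0286, so 1 cluster at that value cannot pass an adjustment over 281. The 0 therefore says little about genotype. In 0 of 281 clusters (0%) did every wild-type library call more regions than any knockout library, and in 1 of 281 (0.356%) every knockout library called more than any wild-type library. That cluster lies in Ptprd, a receptor tyrosine phosphatase of synapses and growth cones (chr4:76260345-76304590). There wild-type libraries called 0, 0 and 0 of 3 regions and knockout libraries 1, 2, 1 and 2 (exact permutation p = 0.0286, adjusted p = 1, n = 3 and 4). All its calls came from knockout libraries, so each region met the rule of 2 callers through knockout calls alone. The p rests on the calls that admitted the regions, and the cluster was named because its genotypes did not overlap. It is therefore a description and no support for a difference by genotype. Each of its regions had 2 callers with folds between 3.86 and 4.84. Without knockout library 1 or 4 no cluster of this kind was left, among 218 and 169 clusters. Without knockout library 3 there were 10 of 264. In the opposite direction there were 1 of 218 and 5 of 169 clusters without knockout libraries 1 and 4. Without wild-type libraries 1 and 3 there were 4 of 241 and 4 of 248. With a library left out the clusters are formed anew and the condition is easier to meet for any cluster. These counts are therefore no result about genotype. A second cluster in the same gene, chr4:78142468-78168757, was called 1, 3 and 2 times in wild-type and 3, 3, 1 and 2 times in knockout.

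**Figure D5:**
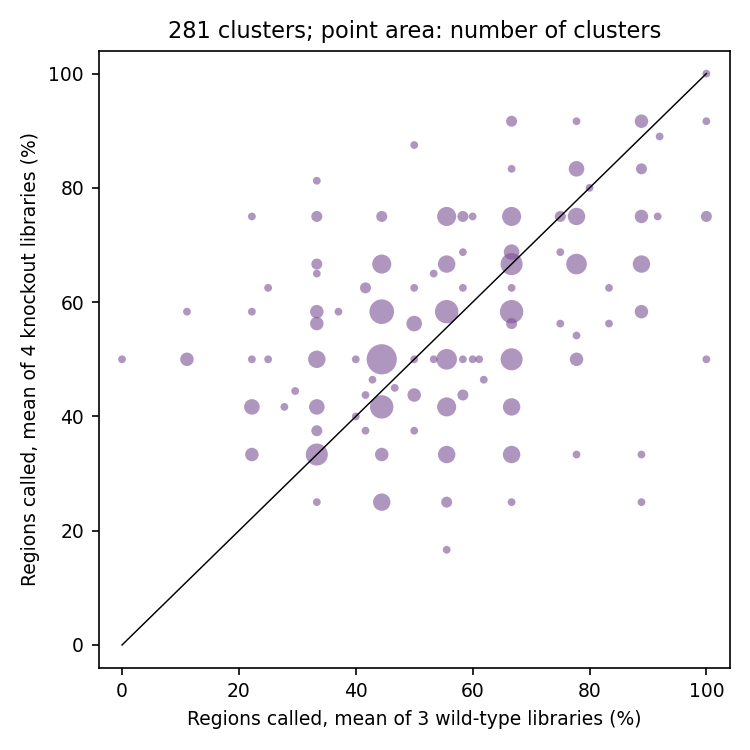
Each of the 281 clusters by the mean share of its regions called in 3 wild-type (x axis, %) and 4 knockout libraries (y axis, %); point area is the number of clusters at a position. Clusters lie on both sides of the diagonal, 134 above and 125 below it, and Ptprd is the one at 0% in wild-type with all knockout libraries above.

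Single members that separated the genotypes were few. Called in every wild-type and no knockout library were 4 of 960 clustered regions (0.417%), beside 30 of all 12806 shared regions (0.234%). Called in every knockout and no wild-type library were 2 of 960 (0.208%), beside 27 of 12806 (0.211%). The knockout share is at the background, and the wild-type share rests on 4 regions. Without knockout library 3, the shortest list, 14 of 906 members were knockout-only, and without wild-type library 3 16 of 851 were wild-type-only. Leaving out knockout library 1 or 2 or wild-type library 1 or 2 gave 4, 5, 4 and 6 knockout-only regions, of 736, 856, 818 and 662 members. Without knockout library 4 or wild-type library 1 or 2 there were 9, 10 and 7 wild-type-only regions, of 570, 818 and 662. With a library left out, the condition is easier to meet for any region. The shares over all shared regions were not computed for these runs, so the counts are no result about clusters.

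The 4 wild-type-only members lay at separate loci. One was at the end of Siah3, a relative of ubiquitin ligases (chr14:75454905-75455133), at folds of 4.28, 4.96 and 4.70. In the same cluster, chr14:75473123-75473641 was called in all 7 libraries. A second, chr12:67618390-67618542, was 395841 bp from the adhesion gene Mdga2, with 4.64, 5.69 and 4.36, and its neighbour chr12:67620214-67620445 was called in wild-type library 2 and in knockout libraries 1, 2 and 4. The cohesin protector gene Sgo1 held the next, chr17:53678781-53678924, at 4.83, 3.98 and 4.53. The cluster it belongs to, over Sgo1 and the acetyltransferase gene Kat2b, was called 2, 3 and 3 times in wild-type and 1, 0, 1 and 2 times in knockout (exact permutation p = 0.0857, n = 3 and 4). The last was inside the transporter gene Abca13, chr11:9570325-9570569, at 5.39, 3.77 and 3.78.

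The 2 knockout-only members were inside Lmo3 and far from Zpld1. Lmo3 encodes a LIM-only adaptor of transcription factors, and its region chr6:138419994-138420154 had folds of 4.62, 4.51, 4.38 and 4.31 in the 4 knockout libraries. Its neighbour chr6:138424957-138425209 was called in all 7 libraries, at 4.66, 5.01 and 4.27 in wild-type and 7.10, 4.38, 4.64 and 4.14 in knockout. The region chr16:55550980-55551496, 228955 bp from Zpld1, had 4.55, 6.03, 3.62 and 4.70 in knockout. In these 6 clusters the other regions were not split by genotype, and no single region can pass an adjustment over all shared regions with 3 against 4 libraries.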

How the data were processed

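ATAC-seq peak lists of 3 wild-type and 4 L3mbtl3 -/- libraries were used, 1 list per library as deposited by the authors. Per the submitters' processing notes the build was GRCm38, and the tools named are MACS2, Bowtie2 2.3.5.1, deepTools 3.3.0, FastQC 0.11.8, SAMtools 1.9 and CASAVA 1.9. How the tools were set, which MACS2 version ran and whether reads were shifted is not given in the sources used here. A fold enrichment (ratio to the caller's background) was deposited for each peak and was used to rank peaks within a list and to describe single regions. The deposited −log10 q served as a filter in an alternative, and the smallest was 1.30 to 1.32 in the 7 lists. The deposited −log10 p and the score were not used. The lists hold no counts, so depth is unknown and no interval could be set on a call.

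Peaks overlapping by at least 1 bp were merged on chromosomes 1 to 19, regions called in 2 or more lists were kept, and neighbours with gaps of at most 25 kb were chained. Expected numbers came from a closed formula for uniform placement between the first and last shared region of each chromosome. Percentages per library were compared by an exact permutation test (two-sided, on the difference between mean values), adjusted by the Benjamini-Hochberg method over 4 measures, and clusters singly over 281. Alternatives were another gap limit, caller minimum, merging distance, coverage of the region, list length (3285 peaks each), −log10 q minimum, base pairs in place of regions, a replicate block and each library left out. Gene spans and promoter windows came from RefSeq tables of GRCm38.p6. The gene table gives no transcripts, so exons and introns were not assigned, and its gene ends are the ends of the span. Promoter windows of chromosome 18 entered the counts and motif shares, but none of their sequences was printed.

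Named clusters were the 12 with most regions, those whose genotypes did not overlap, those within 25 kb of a gene of a list (up to 4 per list), and those called in full by all libraries. Single regions were named when separated by genotype. The members and lists were chosen with earlier results of these data known, and loci outside this rule were picked after their values were seen. Some loci that meet the rule, and 1 gene family examined, are not reported here. The code was tested on simulated data. Versions were Python 3.11.15, numpy 2.4.6, pandas 2.3.3, scipy 1.17.1 and matplotlib 3.10.9.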

Additional observations from a re-analysis of the deposited data

Results flagged for a closer look

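In 30 groups of 4 knockout libraries tested for a library far from the others, 5 had one, where chance gives about 1 in 20 groups. The gap to the nearest other library, over the range of the group, exceeded Dixon's 95% critical value. In 4 of the 5 groups the other 3 libraries had equal counts, so that a difference of any size passes and the rate of 1 in 20, which is for continuous values, does not apply to such counts. At the start of chromosome 9, knockout library 3 was lowest with 20 of 25 regions against 23 in each of the others. In the Sema3a cluster the same library called 0 and the others 4. In the interferon zeta array knockout library 4 called 8 of 9 regions against at most 3. In the Lrrc4c cluster, knockout library 4 called 4 and the others 3. In the histone array with H2ac13, knockout library 1 called 2 and the others 3. Knockout libraries 3 and 4 have the shortest and the longest list.

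Chromosomes X and Y, outside the comparisons, held 22 regions in 7 clusters among 421 shared regions (5.23%). Wild-type libraries called 9, 16 and 12 of them and knockout libraries 10, 7, 6 and 21.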

How the results depend on the processing

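The count of clusters (281, with 960 regions) was 123 (413 regions) when 3 or more lists had to call a region, 33 (122) with lists of equal length, 54 (195) and 775 (2800) for gaps of 10 and 50 kb, 2 (27) at a −log10 q of at least 5, and 169 to 264 (570 to 906) with each library left out. Members exceeded uniform placement 1.54 to 29.3 times in every alternative run. The 29.3 belongs to the q limit, where only the chromosome 9 start and the chromosome 2 interval were left as clusters. The next highest ratio was 3.16, with lists of equal length. Clusters called more in every knockout library (1) numbered 2 by base pairs, 0 with 3 or more lists, equal lists, 10 kb or the q limit, 2 at 50 kb, and 0 to 10 with a library left out. Those called more in every wild-type library (0) numbered 1 by base pairs, 1 with equal lists, 2 at 50 kb and 0 to 5 with a library left out. Knockout-only members (2) numbered 4 when calls had to cover 50% of a region, 0 with equal lists, 1 and 11 at 10 and 50 kb, 0 at the q limit and 2 to 14 with a library left out. Wild-type-only members (4) numbered 0 at 10 kb and at the q limit, and 4 to 16 with a library left out. The same counts over all shared regions were not made under the alternatives.

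Differences between genotypes changed sign or size under several alternatives. Members called (0.495 points) moved to −0.686 with 3 or more lists, −9.63 with equal lists, −4.32 at the q limit and −7.72 to 10.6 with a library left out. The excess over other regions (−0.228 points) moved to 0.0941 with 3 or more lists, 0.347 with 50% coverage, −8.42 with equal lists (exact permutation p = 0.0571), −12.97 at the q limit and −0.638 to 0.683 with a library left out. The rank (0.656) moved to −1.52 with 3 or more lists, −4.38 with equal lists, 6.70 at the q limit and −4.28 to 3.13 with a library left out. The share of calls in clusters (0.0551 points) moved to −0.376 with equal lists, −0.00431 without the chromosome 9 start, the chromosome 2 interval and the interferon zeta array (an alternative chosen after seeing the data), and −0.101 to 0.130 with a library left out. Of the 64 exact permutation tests of these 4 measures under alternatives 0 gave p under 0.05 (0.0571 to 1). The 0.0571 came with equal lists, for members called, the excess and the share of calls, each lower in knockout. The rank with equal lists had an exact permutation p of 0.714. The cause of these changes was not tested.

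The labels number the libraries within each genotype. Same-numbered libraries correlated by 0.0198, 0.0227 and 0.0591 in their calls, and differently numbered ones by −0.0722 to 0.0734. Whether equal numbers mark libraries handled together cannot be told from these values. With the replicate number as a block, members called differed by −8.30 points, the excess by 0.132 points and the rank by −1.94. Depth is unknown, and regions absent from a list may have been open below detection.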

Other observations

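A few further clusters held genes of cell division and neuronal fate. They were picked after their values were seen. Over Sap30 and Hmgb2, the latter a chromatin protein abundant in dividing progenitors, 3 regions (chr8:57487759-57511942) were called 1, 3 and 3 times in wild-type and 3, 2, 0 and 3 times in knockout libraries. The Hmgb2 promoter region had folds of 8.13 and 4.72 in wild-type libraries 2 and 3, and of 5.61, 4.48 and 6.27 in knockout libraries 1, 2 and 4. The region over the start of Pcna, the sliding clamp of DNA replication (chr2:132253190-132253402), was called in wild-type libraries 1 and 2 and knockout libraries 1 and 4, at 3.72 to 4.41.

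Around Prdm13 and Ccnc, 5 regions (chr4:21665886-21727812) were called 2, 3 and 0 times in wild-type and 3, 4, 1 and 5 times in knockout (exact permutation p = 0.286, n = 3 and 4). Prdm13 encodes a zinc-finger factor of inhibitory neuron fate and Ccnc cyclin C. The cluster of Bhlhe22, a basic helix-loop-helix gene of cortical neurons, and Cyp7b1 (chr3:18054083-18096910) was called 2, 2 and 0 times in wild-type and 2, 1, 1 and 2 times in knockout. At Dbx1, a homeobox gene of early-born neurons, 3 regions (chr7:49634385-49654857) were called 2, 1 and 1 times in wild-type and 2, 0, 1 and 3 times in knockout. In all 5 loci the genotypes overlapped.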
